A study of Mus musculus with 7 samples.

Results

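Potassium channel genes were taken as every gene whose symbol starts with Kcn: 99 of the 31053 genes listed in the count matrices. Of these, 97 had at least 1 count in the cells kept. The set holds the pore-forming subunits, the auxiliary subunits and 5 detected antisense RNAs named after a channel gene (Kcnq1ot1, Kcnd3os, Kcnab3os, Kcnmb4os1 and Kcnmb4os2). The cells came from hippocampi of newborn (P0) mice, which were trypsinised and plated on poly-D-lysine, and droplet 3′ libraries were made after 1 (DIV1, 1 library), 3 (DIV3), 5 (DIV5) or 7 days in vitro (DIV7), with 2 libraries for each of the later days. The labels name no allele or drug for any group, and strain and sex are not given in the sources used here. Nothing in the labels says that the 2 libraries of a day came from separate animals or cultures, so p-values measure only how these libraries vary, perhaps for technical reasons. The DIV1 group is a single library.

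Potassium channels let K+ leave or enter the cell and so set the resting potential, shape the action potential and time repetitive firing. Voltage-gated (Kv) channels open on depolarisation, calcium- and sodium-activated channels open when those ions rise inside the cell, inward rectifiers (Kir) pass current best near rest, and two-pore (K2P) channels carry a background leak. In the hippocampus, neurons differ by their Kv and leak channels, while astrocytes are known for the inward rectifier Kir4.1, which takes up K+ released by firing neurons.

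Cell classes were rebuilt by clustering with all Kcn genes left out, so that no member defined a class, and each class is called "-like" after fixed marker genes. Neighbouring antisense pairs such as Kcnd3 and Kcnd3os, or Kcnmb4 and Kcnmb4os2, are uncertain, since the sources used here do not say whether counting used strand. A class level is the sum of unique molecular identifiers (UMIs, 1 per captured transcript) over its cells in 1 library, in CPM (counts scaled to a common library total) after normalization. Summed levels of gene lists are CPM before normalization. By that measure the 12 glutamatergic markers summed to 2146 to 2745 CPM in glutamatergic-like cells, and the 12 GABAergic markers to 2115 to 6569 in GABAergic-like cells. Levels compared across classes were scaled over all classes, and levels compared within a class or pair of classes over those alone, so the same gene can differ slightly between the 2. The 7 libraries held 28846 barcodes and between 36226566 and 114119537 UMIs, and 26548 cells were kept. The limit on mitochondrial UMIs removed 15.8% of the barcodes of DIV7 replicate 1 and at most 5.34% of those of any other library. Over the 21 pairs of libraries, 483 barcodes were shared in all, at most 37 by 1 pair. Of glutamatergic-like cells the DIV1 library held 1198, the DIV3 libraries 1023 and 512, the DIV5 libraries 579 and 459, and the DIV7 libraries 306 and 87. Of the cell types the labels list, endothelial-like cells were found in the DIV1 library alone, with 45 cells, and were not tested. An unnamed group of 2801 cells led by Wisp2 and C1ql3 and the cycling cells stayed out of the class tests.

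The promoters of 4 members on which the results turn are shown here, 1 for each pattern: Kcnma1 and Kcnip2 rose with days in vitro in glutamatergic-like cells, Kcnk1 fell there, and Kcnj10 rose in radial glia or astrocyte-like cells. Each is the 250 bases before the RefSeq transcription start (build GRCm38.p6, 5′ to 3′ on the gene's strand), with GC boxes (GGGCGG on either strand) in capitals. The windows are chr14:24004206-24004455 (minus strand) for Kcnma1, chr19:45816064-45816313 (minus) for Kcnip2, chr8:125994852-125995101 (plus) for Kcnk1 and chr1:172340960-172341209 (plus) for Kcnj10.
Kcnma1: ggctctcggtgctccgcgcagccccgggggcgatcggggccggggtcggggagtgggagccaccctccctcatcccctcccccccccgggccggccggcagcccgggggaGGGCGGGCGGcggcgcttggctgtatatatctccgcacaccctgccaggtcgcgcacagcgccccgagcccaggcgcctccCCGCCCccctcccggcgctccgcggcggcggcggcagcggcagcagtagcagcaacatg
Kcnip2: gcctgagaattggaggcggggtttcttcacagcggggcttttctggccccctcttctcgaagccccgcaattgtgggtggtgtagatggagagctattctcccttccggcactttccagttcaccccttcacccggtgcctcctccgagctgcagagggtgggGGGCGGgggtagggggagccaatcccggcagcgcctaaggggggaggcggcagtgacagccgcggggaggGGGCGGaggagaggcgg
Kcnk1: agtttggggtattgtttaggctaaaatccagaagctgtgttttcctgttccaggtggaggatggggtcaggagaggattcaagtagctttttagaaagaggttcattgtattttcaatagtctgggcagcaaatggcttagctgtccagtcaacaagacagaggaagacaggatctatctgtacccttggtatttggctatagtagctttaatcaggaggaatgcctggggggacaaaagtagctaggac
Kcnj10: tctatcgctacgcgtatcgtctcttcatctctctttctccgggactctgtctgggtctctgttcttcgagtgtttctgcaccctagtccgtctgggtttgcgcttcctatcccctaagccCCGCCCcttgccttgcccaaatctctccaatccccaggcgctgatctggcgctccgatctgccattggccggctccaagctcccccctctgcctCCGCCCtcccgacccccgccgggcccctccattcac
The Kcnma1 window held 3 GC boxes, 2 of them overlapping, and 31 CpG dinucleotides, and the Kcnip2 and Kcnj10 windows held 2 GC boxes each. The Kcnk1 window held none, and no CpG. Among all 32851 promoter entries of the table, 32.7% of such 250-base windows held a GC box, against 43 of the 97 entries (44.3%) that belong to 72 of the 99 members. The members' windows were also richer in G and C bases, with a median of 58.8% against 52.4% in all windows. A link between GC boxes and the changes by day was not tested. The cyclic AMP response element TGACGTCA, on either strand, was in 1.55% of all windows and in none of the members' 97, and the E-box CAGATG was in 14.4% of all windows and in 15 of the members'.

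Among the classes tested, Kcn transcripts made up the largest share of UMIs in glutamatergic-like and Cajal-Retzius-like cells. Summed over all members, Kcn UMIs made up 1293 to 1672 CPM in glutamatergic-like cells (7 libraries, median 1469) and 1454 to 1826 in Cajal-Retzius-like cells (4 libraries). GABAergic-like cells held 891 to 1339 and radial glia or astrocyte-like cells 524 to 1252, which overlapped each other but, for the glial class, neither of the first 2. The lowest totals were in microglia-like cells, 131 to 220 CPM over 6 libraries, and fibroblast-like cells, 163 to 322 over 6 libraries, neither of which overlapped any neuron-like class. Mural-like totals, 247 to 257 over 3 libraries, lay inside the fibroblast-like range. Cells of unnamed clusters, which stayed out of the class tests, held 531 to 1478 CPM (7 libraries, median 1212). That range overlapped those of glutamatergic-like and Cajal-Retzius-like cells. Of the 42 members with a mean of at least 10 CPM in some class, 11 were highest in glutamatergic-like, 9 in Cajal-Retzius-like and 5 in GABAergic-like cells. The same count over all genes is not given here, so these numbers show no enrichment of the members.

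Each class was then set against the mean of the other 10 with edgeR's quasi-likelihood test, library as a block and Benjamini-Hochberg adjustment over all genes tested, and a gene was called at an adjusted p below 0.05. Of 65 members tested, 50 were higher and 2 lower in glutamatergic-like cells, where 40% of all genes were called higher and 23.3% lower. In GABAergic-like cells 45 were higher and 3 lower (26% of all genes higher, 26.7% lower), in Cajal-Retzius-like cells 33 and 3 (22.8% and 17.3%), in oligodendrocyte lineage-like cells 26 and 2 (22.1% and 12.5%) and in neuroblast-like cells 18 and 1 (16.9% and 15.6%). For radial glia or astrocyte-like cells the counts were 23 higher and 7 lower (30.7% of all genes higher, 16.6% lower), for ciliated-like cells 21 and 9 (34.3% and 27.6%) and for choroid plexus-like cells 12 and 5 (28.9% and 21.6%). Microglia-like cells had 5 members higher and 31 lower, against 33.7% of all genes higher and 31.3% lower, fibroblast-like cells 9 and 20 (34.7% and 22.6%) and mural-like cells 3 and 11 (18.5% and 14.7%). The median log2 difference over the members ran from 2.12 in glutamatergic-like to -3.40 in microglia-like cells, where the median over all genes tested was 0.11 and -0.11. Some member estimates had a standard error far above the estimate itself, such as Kcna2 (-6.41) in microglia-like cells. The microglia-like median therefore gives a direction rather than a measured size. Such estimates were also seen in other classes, including fibroblast-like, choroid plexus-like, mural-like and neuroblast-like cells. Members with them could not be called, so the counts of lower members may be too small. The count of members called moved by over 1.5 times for fibroblast-like cells with DESeq2 (5 higher, 47 lower), for ciliated-like cells with the stricter cell filter described below (14 higher, 4 lower) and for neuroblast-like cells without the DIV1 library (9 higher, 1 lower).

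**Figure D1:**
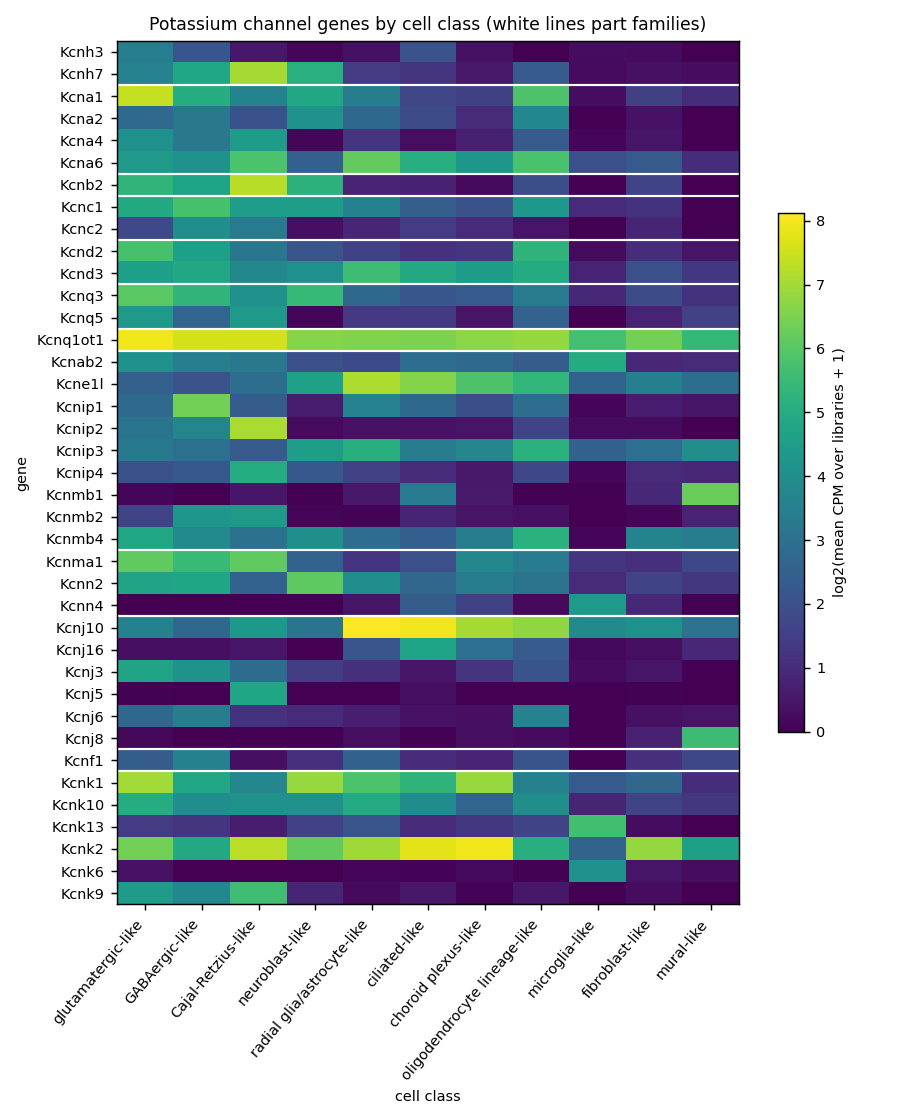
Heatmap of log2(mean CPM over libraries + 1) for 39 of the 42 members with a mean of at least 10 CPM in some class, with genes in rows ordered by family and the 11 tested classes in columns. Columns for neuron-like classes are bright over most voltage-gated families, and the microglia-like, fibroblast-like and mural-like columns are dark except for a few genes such as Kcnk13, Kcnk2 and Kcnj8.

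By family, the direct comparison of glutamatergic-like with radial glia or astrocyte-like cells, paired within libraries, put 46 of 67 members higher and 12 lower, where 67.6% of all genes were called (33% higher, 34.6% lower). All 5 EAG, ERG and ELK channels (Kcnh) tested were higher in glutamatergic-like cells. So were 6 of 7 calcium- and sodium-activated channels and 7 of 9 inward rectifiers. The Kv1 family was divided, with 2 of 5 higher and 2 lower. Kcnma1, the large-conductance calcium-activated (BK) channel, was at 69.6 ± 30.6 CPM (SD, n = 7 libraries) in glutamatergic-like and 1.39 ± 0.827 in radial glia or astrocyte-like cells. The lowest glutamatergic-like library stood above the highest glial one, at 31.8 against 2.61 CPM. Lower members were led by Kcne1l, Kcnj10, Kcnk7, Kcng4, Kcns3 and Kcnj16.

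Several members were high in 1 or few classes. Kcnj5, which forms the acetylcholine-gated inward rectifier of the heart with Kcnj3, was at 26.3 ± 14.8 CPM (n = 4) in Cajal-Retzius-like cells and at most 0.793 CPM in any library of another class. Those cells also held the highest means of Kcnb2 (152 ± 45.0 CPM), of Kcnip2, an auxiliary subunit of Kv4 channels (135 ± 86.8, from 11.7 to 215), and of Kcnh7, an ERG channel (128 ± 31.8). All 4 were called higher there. Kcnip2 had the widest spread of these, and its lowest Cajal-Retzius-like library fell inside the GABAergic-like range of 2.97 to 25.6 CPM.

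Microglia-like cells had 5 higher members. Kcnk13 and Kcnk6 are K2P channels, Kcnn4 is the intermediate-conductance calcium-activated channel, Kcnab2 a Kv β-subunit and Kcnj2 an inward rectifier. Kcnab2 and Kcnj2 were also called higher in glutamatergic-like than in radial glia or astrocyte-like cells, by 2.73 and 2.33 on the log2 scale. Kcnk13 was at 35.4 to 63.2 CPM over 6 microglia-like libraries and at most 11.5 in any other class. Kcnk6 was at 8.89 to 24.2 CPM there and at most 1.23 elsewhere, and Kcnn4 at 9.36 to 39.8 CPM against at most 5.35, the latter in ciliated-like cells. Neither gene's microglia-like range met that of another class.

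Mural-like cells, the pericytes and smooth muscle of vessels, had 3 higher members in their 3 libraries. Kcnj8, the pore of the vascular ATP-sensitive channel, was at 46.7 ± 15.3 CPM and at most 1.59 in any library of the other classes. Kcnmb1, the smooth muscle BK β-subunit, was at 75.9 ± 40.4 CPM, with ciliated-like cells next at 8.84 ± 4.87, and Kcne4 at 6.40 ± 1.13. Levels of Kcne4 in other classes are not given here, so it is not shown as particular to mural-like cells. These 3 libraries hold few cells, from 3 to 81 mural-like cells a library over the series, and only those with at least 20 were used.

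Among glia and epithelia, Kcnj10 (Kir4.1) was highest in radial glia or astrocyte-like cells, 69.6 to 484 CPM, and in ciliated-like cells, 36.7 to 384 CPM. The ranges of these classes overlapped almost fully, and those of choroid plexus-like (28.1 to 204) and oligodendrocyte lineage-like cells (43.2 to 221) overlapped both. Kcnj16 (Kir5.1), which assembles with Kir4.1, was highest in ciliated-like cells at 25.2 ± 9.60 CPM, against 3.36 ± 2.79 in radial glia or astrocyte-like cells. Kcne1l, the file's symbol for the accessory subunit also known as Kcne5, was at 136 ± 58.8 CPM in radial glia or astrocyte-like and 96.0 ± 54.4 in ciliated-like cells. Kcnk2 (TREK-1), a mechanosensitive K2P channel, was widespread: 246 ± 92.6 CPM in choroid plexus-like, 221 ± 68.3 in ciliated-like and 112 ± 31.3 in fibroblast-like cells, but 5.02 ± 4.89 in microglia-like cells. The textbook choroid plexus members Kcnj13 (Kir7.1) and Kcne2 reached means of only 2.56 ± 1.80 and 2.34 ± 2.17 CPM in choroid plexus-like cells, with at least 1 library at 0 each.

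**Figure D2:**
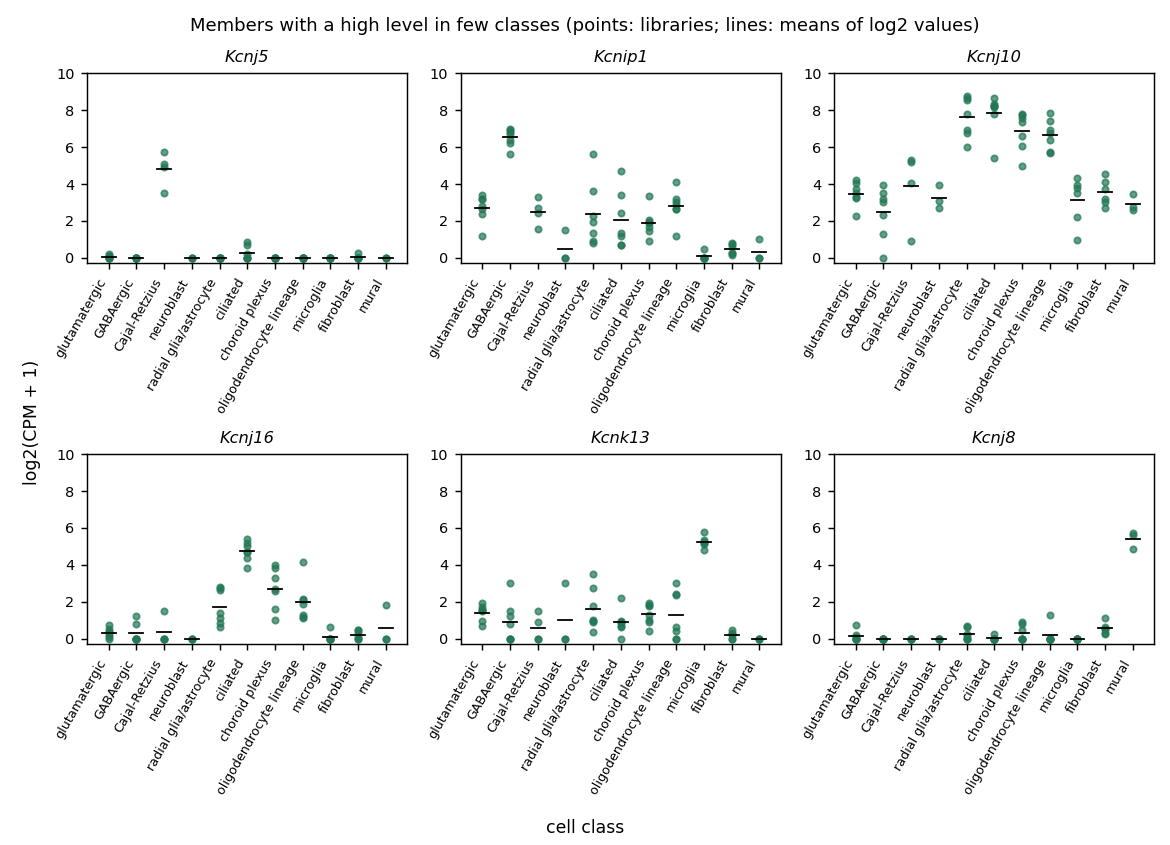
Levels of 6 members as log2(CPM + 1) in each class, with 1 point per library and a line at the mean of the log2 values. Kcnj5 stands out in Cajal-Retzius-like, Kcnip1 in GABAergic-like, Kcnk13 in microglia-like and Kcnj8 in mural-like cells, and Kcnj10 and Kcnj16 span the glial and ciliated-like classes. For Kcnip1, the DIV1 library of radial glia or astrocyte-like cells was near the lowest GABAergic-like library.

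GABAergic-like neurons differed from glutamatergic-like ones in 23 of 44 members tested within libraries, 9 higher and 14 lower, where 27.7% of all genes were called (13.4% higher, 14.3% lower). Kcnip1, an auxiliary subunit of A-type Kv4 channels known from interneurons, ran from 48.6 to 126 CPM (median 104) over 7 GABAergic-like libraries and from 1.28 to 9.46 (median 5.97) in glutamatergic-like ones. The groups did not overlap, and the log2 difference was 3.82 ± 0.29 (SE; edgeR, adjusted p = 2.57e-06). Kcnmb2, a β-subunit that inactivates BK channels, was at 7.06 to 32.5 CPM (median 24.0) against 0.691 to 3.56 (median 2.27), a difference of 3.21 ± 0.36 (edgeR, adjusted p = 1.52e-06).

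Of the Kv3 channels, which allow fast spiking, Kcnc1 and Kcnc2 were higher in GABAergic-like cells. Kcnc1 ran from 44.5 to 106 CPM (median 50.7) in GABAergic-like and from 19.9 to 42.0 (median 30.2) in glutamatergic-like libraries, without overlap. Kcnc2 had a larger log2 difference, 2.83 ± 0.32, but its lowest GABAergic-like library, at 3.43 CPM, lay below the highest glutamatergic-like one, at 5.10. The remaining higher members were Kcns2, Kcnf1 (both silent Kv subunits), Kcnk3 (TASK-1), Kcnh7 and Kcnip2.

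Lower in GABAergic-like cells were, among others, the M-current subunits Kcnq3 and Kcnq5, 3 K2P members (Kcnk1, Kcnk2 and Kcnk10), Kcnh1, Kcnh3, Kcnd2, Kcnmb4, its antisense RNA Kcnmb4os2, and Kcna1. The largest of these was Kcna1 (Kv1.1), a low-threshold channel of axons, at 10.7 to 84.8 CPM (median 30.7) in GABAergic-like and 134 to 223 (median 170) in glutamatergic-like libraries. Its log2 difference was -2.27 ± 0.40 (edgeR, adjusted p = 0.00574). Kcnk1 (TWIK-1) followed at -1.96 ± 0.20, and both genes were lower in each GABAergic-like library than in any glutamatergic-like one. With a stricter cell filter of at least 1000 genes and at most 5% mitochondrial UMIs, 12 of 38 members were called in place of 23, in a fit that dropped both DIV7 libraries, left with 17 and 13 GABAergic-like cells. Marker transcripts of glutamatergic neurons, 12 genes, summed to 94.2 to 1120 CPM in the GABAergic-like sums, highest at DIV1, and their part in these differences was not tested.

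Within the glutamatergic-like class, dentate-like and pyramidal-like neurons differed in 28 of 53 members, 12 higher and 16 lower in dentate-like cells, where 44.6% of all genes were called (20.8% higher, 23.8% lower). Pyramidal-like cells were marked by Kcnk9 (TASK-3), a pH-sensitive K2P channel, and Kcnq5, an M-current subunit. Kcnk9 had a median of 27.0 CPM (5.57 to 43.0) over 7 pyramidal-like libraries and of 0 (0 to 3.42) in dentate-like ones, and the groups did not overlap. The fitted log2 difference was -4.87 ± 0.37 (edgeR, adjusted p = 3.01e-10). Kcnq5 ran from 6.44 to 40.1 CPM (median 28.6) against 0 to 3.42 (median 2.16), with a log2 difference of -3.48 ± 0.30 (edgeR, adjusted p = 2.54e-09).

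Other members lower in dentate-like cells were Kcnd2 (Kv4.2), the dendritic A-type channel, at 4.37 to 33.2 CPM (median 13.9) against 39.8 to 81.1 (median 62.1), Kcnip3, Kcnk10, Kcnk3, Kcnh3, Kcnt1, Kcng1, Kcns1, Kcnc2, Kcnj6, Kcnj3 and Kcnk2. Both inward rectifiers named here, Kcnj3 and Kcnj6, are subunits of G protein-gated channels. Kcnt1, Kcng1, Kcnk3 and Kcns1 had medians of 0 CPM in dentate-like cells, so their fitted changes rest on few counts.

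Higher in dentate-like cells were Kcna1, at 267 to 542 CPM (median 469) against 69.6 to 163 (median 118), and Kcnk1, at 124 to 382 (median 194) against 60.9 to 195 (median 88.8). Kcna1 did not overlap and differed by 1.96 ± 0.13 on the log2 scale (edgeR, adjusted p = 2.16e-09). Kcnk1 overlapped across libraries but differed by 1.23 ± 0.10 within them (edgeR, adjusted p = 8.07e-10). Kcnh7 (2.38 ± 0.26), Kcnf1, Kcnt2, Kcnj2, Kcnip2, Kcnab1, Kcnh8, Kcnn2, Kcnb2 and Kcnq1ot1 were also higher. Kcnq1ot1, an imprinted antisense RNA, differed least, by 0.36 ± 0.09. The dentate-like share of glutamatergic-like cells was 6.18% in the DIV1 library, 58.1% and 30.1% in the DIV3 libraries, 45.3% and 30.9% in those of DIV5, and 50.7% and 32.2% in those of DIV7, so the class sums weigh the subtypes differently between libraries.

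**Figure D3:**
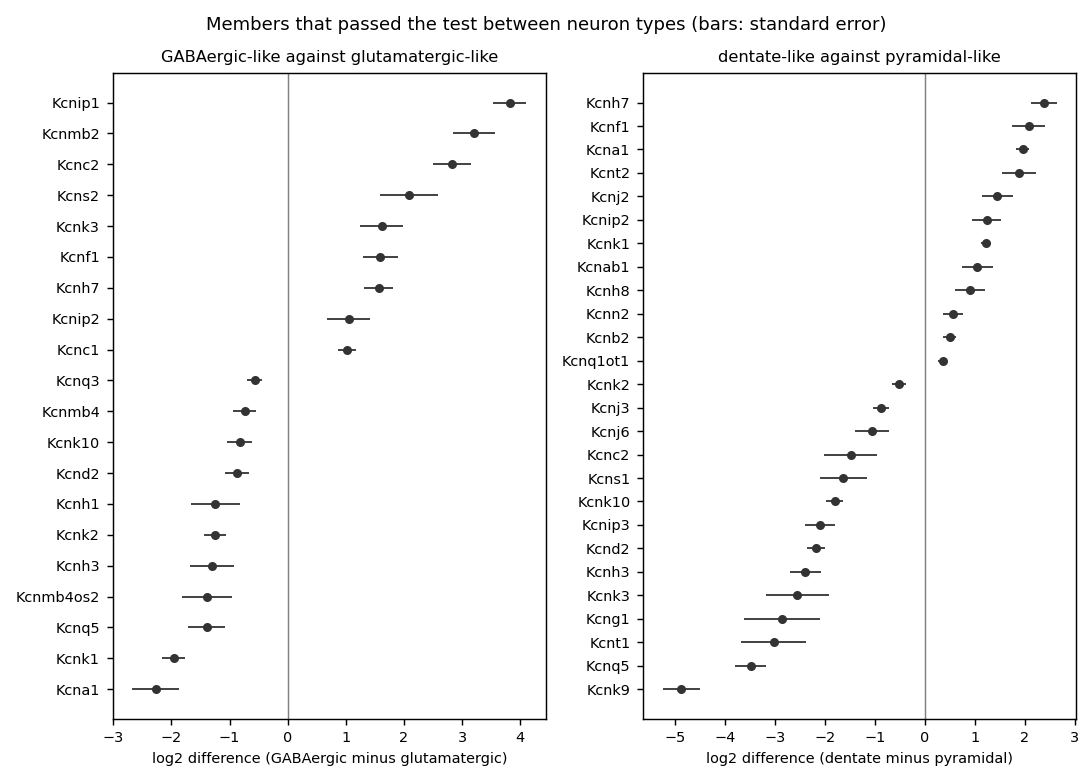
Log2 differences with standard errors for 20 of the 23 members called between GABAergic-like and glutamatergic-like cells (left) and 26 of the 28 called between dentate-like and pyramidal-like cells (right). Points right of 0 are higher in GABAergic-like or dentate-like cells. Kcnip1 at 3.82 and Kcnk9 at -4.87 are the extremes.

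From DIV3 to DIV7, 10 members rose and 1 fell in glutamatergic-like cells, of 66 tested, where 6.81% of all 13237 genes were called (4.55% higher, 2.26% lower). With the replicate number as a block, in a fit without the DIV1 library, 19 of 61 rose and 2 fell, where 22.6% of all genes were called. The other 33 members were below the count filter, with at most 13 counts over the 7 libraries. The members' median log2 change was 0.87, against -0.03 over all genes tested. For all 11 the mean of the DIV5 libraries lay between those of DIV3 and DIV7. These 11 were picked for their gap between DIV3 and DIV7. The share among all genes called is not given here, so this describes the 11 only. In these sums fewer cells of a subtype and less RNA per cell cannot be told apart.

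M-current and BK channels were among the members that rose. Kcnq5 went from 6.24 CPM on day 1 and 7.05 and 11.1 on day 3 to 22.0 and 32.0 on day 5 and 29.9 and 30.0 on day 7. It stood higher in each DIV7 library than in each DIV3 library, by 1.79 ± 0.32 on the log2 scale (edgeR, adjusted p = 0.0120). Kcnma1, whose promoter with 3 GC boxes is printed above, was at 39.6 CPM in the DIV1 library, 32.8 and 49.3 in those of DIV3, 71.5 and 96.8 in those of DIV5, and 102 and 104 in those of DIV7, a log2 change of 1.38 ± 0.26 (edgeR, adjusted p = 0.0153). In dentate-like cells alone its change was 0.27 and did not pass (edgeR, adjusted p = 0.710), and in pyramidal-like cells alone it was 1.66. Kcnt1, the sodium-activated channel Slack, rose by 2.65 ± 0.56 from 0.672 and 1.19 CPM to 5.76 and 5.10. Levels of Kcnq3, another M-current subunit, were 56.1 and 84.1 CPM at DIV3 and 64.5 and 61.9 at DIV7 and did not pass the test (edgeR, adjusted p = 0.830).

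Of the Kv channels and their subunits, Kcnh3, the silent subunit Kcng1, Kcnip2 and Kcnab2 rose. Kcnip2 was at 0.802 CPM at DIV1, 4.70 and 1.79 at DIV3, 5.39 in both DIV5 libraries, and 19.6 and 17.2 at DIV7, a log2 change of 2.52 ± 0.43 (edgeR, adjusted p = 0.00986). Both DIV7 libraries stood well above the other 5, although no member passed the test between DIV5 and DIV7. Kcnab2 was at 8.73 and 9.41 CPM on day 3, 21.5 and 19.2 on day 5, and 33.1 and 22.3 on day 7, and rose by 1.70 ± 0.29 (edgeR, adjusted p = 0.00966). Kcnab2 was also high in microglia-like cells, whose 12 marker genes summed to 4.79 and 10.1 CPM in the DIV3 glutamatergic-like sums and 26.9 and 110 at DIV7, against 15445 to 25126 in microglia-like cells themselves. None of those 12 markers was at 0 in all glutamatergic-like sums, 3 of the 10 tested rose, and their part in the Kcnab2 change was not tested. Kcnh3 went from 2.85 and 5.08 to 18.4 and 15.3 CPM and Kcng1 from 0.588 and 1.79 to 5.99 and 8.93.

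Kcnj4, a neuronal strong inward rectifier (Kir2.3), rose by 2.25 ± 0.53 from 1.76 and 2.99 CPM to 14.3 and 5.74, with the 2 DIV7 libraries far apart. With the stricter cell filter its change was -0.063 and without DIV7 replicate 1 it was 1.38, neither past the threshold (edgeR, adjusted p = 0.996 and 0.359), while in dentate-like cells alone it was 4.18. The member that fell was Kcnk1, whose promoter without a GC box is printed above: 154 CPM on day 1, 259 and 133 on day 3, 104 and 103 on day 5, and 77.8 and 74.6 on day 7, a log2 change of -1.30 ± 0.28 (edgeR, adjusted p = 0.0232), and of -0.77 without DIV3 replicate 1 (edgeR, adjusted p = 0.0676). In fits added after the data were seen, Kcnk1 also passed in dentate-like cells alone (log2 change -1.19) and in pyramidal-like cells alone (-1.23). In pyramidal-like cells alone all 11 calls were kept, and in dentate-like cells alone 4 of the 7 that could be tested.

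**Figure D4:**
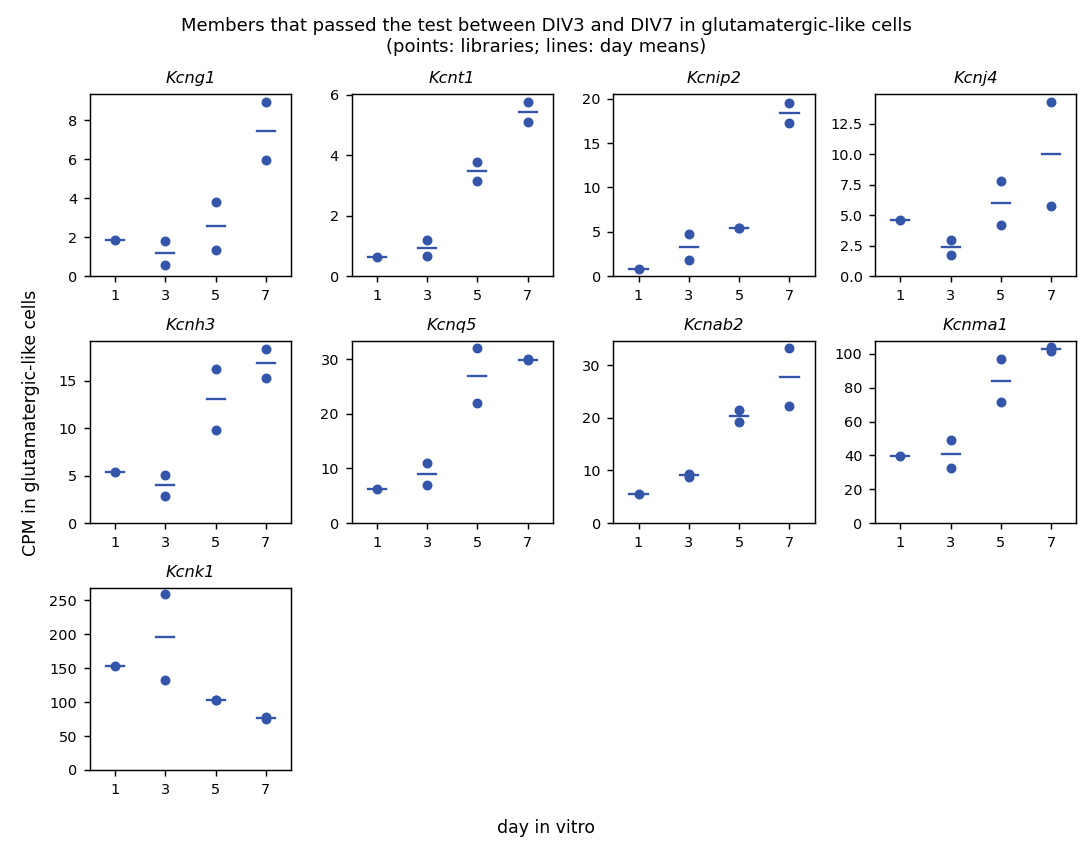
CPM in glutamatergic-like cells by day in vitro for 9 of the 11 members called between DIV3 and DIV7, with 1 point per library and a line at each day's mean. In all 9 panels both DIV7 libraries lie on the same side of both DIV3 libraries, and Kcnk1 is the panel that falls.

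Some of the best known neuronal members showed no change that passed the test. Kcna1 was at 141 and 199 CPM at DIV3 and 171 and 134 at DIV7 (edgeR, adjusted p = 0.811). Kcnd2, at 40.3 and 63.9 against 65.1 and 71.4 CPM, did not pass either (edgeR, adjusted p = 0.348). Nor did Kcnk2, at 87.9 and 103 against 93.9 and 81.6 CPM. Kcnj3 was at 14.0 and 22.7 CPM at DIV3 and 35.2 and 35.1 at DIV7, without overlap but above the threshold (edgeR, adjusted p = 0.065). In 40 of the 66 members both DIV7 libraries lay above both DIV3 libraries, and in 10 both lay below; over all genes tested these shares were 26% and 31.8%.

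The calls between DIV3 and DIV7 rested on few libraries and on the cell filter. Without DIV7 replicate 1 none of the 11 passed, without DIV7 replicate 2 only Kcnab2, and without DIV3 replicate 1 only 4 members, whereas 17 of 66 passed without DIV3 replicate 2, where 20.7% of all genes did. Without DIV7 replicate 1, 21 of 64 members and 17.3% of all genes had an unadjusted p below 0.05 in edgeR. With the stricter cell filter edgeR called 0 of 64, with 11 at an unadjusted p below 0.05 against 9.21% of all genes, and 40 of 306 and 55 of 87 glutamatergic-like cells remained in the DIV7 libraries. DESeq2, run on the cells of the main filter, called 11. The median mitochondrial share of these cells was 3.85% and 4.75% at DIV3 and 6.39% and 4.65% at DIV7. Summed markers of radial glia or astrocytes in the glutamatergic-like sums were 716 and 1142 CPM at DIV3 and 1553 and 2790 at DIV7, with 2 of 16 called higher and 1 lower, and ciliated markers 22.1 and 37.6 against 69.9 and 57.8, with 3 of 9 tested called higher. Neuroblast markers fell in 5 of 9 tested. Their part in the members' changes was not tested.

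Shorter intervals gave no call in the main edgeR fit, while some other settings gave calls. From DIV1 to DIV3, DIV3 to DIV5 and DIV5 to DIV7, edgeR called 0 of 66 members, with 0.219%, 0.453% and 0% of all genes called. At an unadjusted p below 0.05 were 8, 13 and 6 members, against 12.7%, 13.8% and 4.86% of all genes. With the replicate block edgeR called 6 of 61 members from DIV3 to DIV5, all higher at DIV5 (Kcnt1, Kcnh3, Kcnq5, Kcnf1, Kcnab2 and Kcnma1), where 5.64% of all genes were called, and 0 from DIV5 to DIV7. DESeq2 called 2 members from DIV1 to DIV3, Kcnk2 (1.28 on the log2 scale) and Kcnh1 (2.45), 3 from DIV3 to DIV5, Kcnq5 (1.62), Kcnma1 (1.06) and Kcnh3 (1.77), and 0 from DIV5 to DIV7. Without DIV3 replicate 2, edgeR called 11 of 66 members from DIV3 to DIV5 and 4 of 66 from DIV1 to DIV3, where 9.65% and 3.73% of all genes were called.

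In radial glia or astrocyte-like cells, 11 members rose and 4 fell from DIV3 to DIV7, of 55 tested, where 20.7% of all genes were called (10.3% higher, 10.4% lower). Kcnj10, whose promoter is printed above, was at 62.7 CPM in the DIV1 library, 121 and 106 in those of DIV3, 225 and 380 in those of DIV5, and 436 and 410 in those of DIV7. Each later day stood above the earlier ones. No test between days was made in other non-neuronal classes. In ciliated-like cells Kcnj10 was at 217 and 292 CPM at DIV3 and 408 and 302 at DIV7. Choroid plexus-like cells went from 66.5 and 95.5 to 218 and 166, and oligodendrocyte lineage-like cells from 52.9 and 81.3 to 228 and 167. In these classes both DIV7 libraries also lay above both DIV3 libraries. Kcnj10 levels by day in the remaining non-neuronal classes are not given here. In radial glia or astrocyte-like cells the DIV3 to DIV7 log2 change was 1.91 ± 0.29 (edgeR, adjusted p = 0.00966). Kcna6 (Kv1.6) went from 2.40 CPM on day 1 and 19.4 and 35.9 on day 3 to 62.3 and 95.3 on day 5 and 96.5 and 135 on day 7, a log2 change of 2.12 ± 0.39 (edgeR, adjusted p = 0.0132). Kcnd3 (Kv4.3) was at 51.2 CPM at DIV1, 29.1 and 18.1 at DIV3, and 67.0 and 61.4 at DIV7, and rose from DIV3 to DIV7 by 1.43 ± 0.32, or by 0.83 with finer clustering.

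Other risen glial members were 7 at low levels, of at most 8.03 CPM in the DIV3 and DIV7 libraries: Kcnq3, Kcnip4, Kcnd1, Kcnk7, Kcnc2, Kcng4 and Kcnj3. Among those that fell, Kcne1l was at 201 and 167 CPM at DIV3 and 98.6 and 113 at DIV7, after 33.2 at DIV1, a log2 change of -0.78 ± 0.22 (edgeR, adjusted p = 0.0430), which with finer clustering was -0.51 and did not pass (edgeR, adjusted p = 0.132). Kcnip1 dropped from 48.8 CPM at DIV1 and 11.1 and 2.82 at DIV3 to 0.894 and 0.762 at DIV7, and Kcnk13 from 10.4 at DIV1 and 5.72 and 2.42 at DIV3 to 0.894 and 0.969. The members' median log2 change was 0.30, against 0.04 over all genes tested. Kcnh7, which also fell, was at 1.46 and 5.64 CPM at DIV3 and 0 and 0.208 at DIV7.

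This glial class was not made of the same clusters on each day. Cluster 10, led by Hes5, held 99.7% of it in the DIV1 library, cluster 16, led by Rgs5, 61.6% in DIV5 replicate 1, and cluster 2, led by Scd1, 82.7% in DIV5 replicate 2. Cluster 3, led by Lcn2 and Isg15, held 97.5% of it in DIV3 replicate 1, clusters 16 and 10 held 55.8% and 37.3% in DIV3 replicate 2, clusters 11 (led by Glycam1) and 16 held 48.6% and 38.1% in DIV7 replicate 1, and clusters 11 and 2 held 51.7% and 42.9% in DIV7 replicate 2. Astrocyte and radial glia markers themselves summed to 14373 and 15165 CPM at DIV3 and 41048 and 56288 at DIV7, and 12 of 16 rose. Cycling markers fell in 6 of 12, from 413 and 290 to 171 and 105 CPM, and ciliated markers rose in 5 of 10 tested, from 148 and 79.0 to 520 and 241. The part of these shifts in the members' changes was not tested. No member passed without DIV3 replicate 1 or without DIV7 replicate 2, 2 passed without DIV7 replicate 1, 8 without DIV3 replicate 2, and 2 of 20 tested with the stricter cell filter, whose fit dropped DIV7 replicate 1, left with 10 cells of the class. At an unadjusted p below 0.05 in edgeR were 13 of 49 members without DIV3 replicate 1 and 11 of 48 without DIV7 replicate 2, against 28.1% and 23% of all genes in those fits, and DESeq2 over all libraries called 11.

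The change from DIV3 to DIV7 differed between glutamatergic-like and radial glia or astrocyte-like cells for 7 of 71 members in 1 model over both classes, where 5.29% of all genes were called (2.44% with a more positive change in neurons, 2.85% with a more negative one). Kcnc1 (Kv3.1) was the member whose change was more positive in neurons: 30.2 and 24.9 CPM at DIV3 and 35.0 and 28.7 at DIV7 in glutamatergic-like cells, but 15.5 and 19.3 against 7.45 and 3.60 in the glial class. The difference of the log2 changes was 1.84 ± 0.41 (edgeR, adjusted p = 0.0211). The Kcnc1 change passed in neither class by itself (edgeR, adjusted p = 0.638 in glutamatergic-like cells and 0.0562 in the glial class). For Kcnk1 the neuronal fall stood against glial levels of 68.6 and 25.4 CPM at DIV3 and 73.9 and 42.0 at DIV7, a difference of -1.76 ± 0.31 (edgeR, adjusted p = 0.00766), which was -0.80 with finer clustering and did not pass (edgeR, adjusted p = 0.388). Kcnj10, Kcna6, Kcnj3 and Kcnip3 also had a more negative or less positive change in glutamatergic-like cells. Of these, Kcnj10 was at 8.56 and 10.3 CPM at DIV3 and 17.3 and 12.1 at DIV7 in glutamatergic-like cells, a difference of -1.29 ± 0.31 from the glial change (edgeR, adjusted p = 0.0292), and of -0.67 with finer clustering, not past the threshold (edgeR, adjusted p = 0.214). Summed markers of radial glia or astrocytes in the glutamatergic-like sums were also higher at DIV7 than at DIV3, as given above. Their part in the Kcnj10 levels of those sums was not tested. Without DIV7 replicate 1 or DIV7 replicate 2 only 1 member passed, without DIV3 replicate 2 only 3, and with finer clustering 1 of the 7 calls was kept. With the stricter cell filter edgeR called 0, with 10 of 62 at an unadjusted p below 0.05 against 13.2% of all genes, while DESeq2 on all cells called 4.

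**Figure D5:**
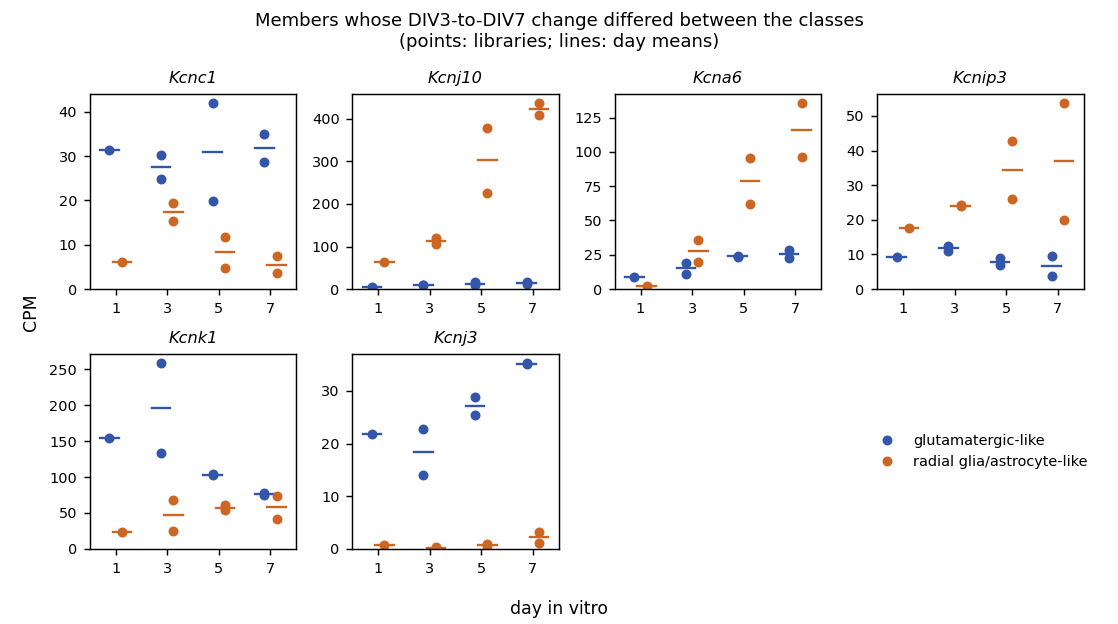
CPM by day in vitro for 6 of the 7 members whose change from DIV3 to DIV7 differed between glutamatergic-like (blue) and radial glia or astrocyte-like cells (orange), with 1 point per library and a line at each day's mean. Kcnj10 and Kcna6 climb in the glial class to 410 or more and 96.5 or more CPM at DIV7, while Kcnk1 falls in glutamatergic-like cells to below 78 CPM.

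Partners of these channels outside the Kcn symbols were read from a list of 31 genes. In glutamatergic-like cells 27 were tested from DIV3 to DIV7, of which 6 rose and 0 fell, where 4.55% of all genes rose and 2.26% fell. Dpp10, an auxiliary subunit of Kv4 channels, rose by 2.50 ± 0.43 from 1.68 and 2.24 CPM to 11.7 and 8.93 (edgeR, adjusted p = 0.00966). Sptbn4, the axon initial segment spectrin that helps hold Kv7 channels there, went from 7.39 and 9.11 to 21.9 and 19.1 CPM. Nrcam, an adhesion molecule of the same site, went from 31.5 and 28.2 to 65.1 and 63.8. Nrcam was lower in glutamatergic-like than in radial glia or astrocyte-like cells (log2 difference -1.64). Markers of that glial class in the glutamatergic-like sums were higher at DIV7, as given above. Their part in the Nrcam change was not tested. Cntnap2, which clusters Kv1 channels on axons, and the hyperpolarisation-activated channel Hcn2 also rose. Between neuron types, Dpp10 was higher in GABAergic-like than in glutamatergic-like cells by 3.22 ± 0.19 on the log2 scale. Lgi1, a secreted partner of Kv1 channels, was lower in dentate-like than in pyramidal-like cells (log2 difference -2.75 ± 0.15), while Cntnap2 was higher there (2.69 ± 0.13).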

How the data were processed

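The deposited values are UMI counts per gene and barcode, 1 matrix per library, made with Cell Ranger 4.0.0 and build mm9 per the submitters' processing notes, while the file headers name software version 3.0.2. The cell filter asked for 500 or more detected genes and no more than 10% of UMIs from mitochondrial genes, and 161 called doublets (0.603%) were removed with Scrublet in scanpy 1.11.5 (Python 3.11.15). Cells were clustered (2000 variable genes without Kcn genes, 30 components, 15 neighbours, Leiden resolution 1) into 35 clusters, named from marker lists by a rule set after the clusters, but not the gene tests, were seen. Counts were summed per class and library with at least 20 cells and compared by the robust quasi-likelihood test of edgeR 4.0.16 under R 4.3.3 (TMM scaling, low-count filter), with Benjamini-Hochberg adjustment over all genes tested. Day comparisons were fitted over the libraries of all days, and class comparisons with library as a block. DESeq2 1.42.0 was an alternative, as was a fit with the replicate number as a block: same-numbered libraries deviated together in glutamatergic-like cells (correlations 0.457, 0.241 and 0.384 over 9773 genes), although no label says what a number shares. On simulated data for DIV3 against DIV7, run on 12909 genes, 34% of changes of 1 on the log2 scale and 100% of changes of 2 were recovered.

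Named were all members past an adjusted p of 0.05, or, where more than 12 passed in a direction, those of largest fold at 10 CPM or more, plus a fixed list of well-known channels, with class comparisons given by family. A few genes that enter the counts are not reported by name here. Members and lists were chosen with earlier results of these data known. Alternatives changed the test, scaling, filters, doublet removal, clustering, cells summed, libraries and block. Total UMIs of 36226566 to 114119537 per library set the precision. Promoters came from RefSeq (GRCm38.p6), whose coordinates were not joined to the counts.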

Additional observations from a re-analysis of the deposited data

Results flagged for a closer look

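For 7 members the change from DIV3 to DIV7 differed between glutamatergic-like and radial glia or astrocyte-like cells by the interaction test (edgeR, adjusted p below 0.05), and the values of 6 of them follow. The difference comes from 1 model over both classes and the change in each class from a separate fit, so the values do not subtract exactly. Kcnc1 had a difference of log2 changes of 1.84, with changes of 0.28 in the neurons and -1.71 in the glia. This difference passed in 11 of 13 other settings, but neither change passed by itself (edgeR, adjusted p = 0.638 and 0.0562). Kcnk1 had a difference of -1.76, with -1.30 against 0.29, and passed in 10 of 13. For Kcnj10 the difference was -1.29 (0.73 against 1.91, 7 of 13) and for Kcna6 -1.35 (0.84 against 2.12, 5 of 13). The part of glial transcripts in the glutamatergic-like Kcnj10 counts was not tested. Kcnip3 had a difference of -1.50 (-0.95 against 0.66, 6 of 13), and neither of its changes passed by itself (edgeR, adjusted p = 0.201 and 0.316). Kcnj3 had the widest gap, -2.71 (0.99 against 3.84, 7 of 13), but was at no more than 3.25 CPM in any glial library.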

How the results depend on the processing

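Of the values for single members under the alternatives, 6461 stayed on the same side of the threshold, of which 180 had the other sign but passed in neither fit, 332 lost the call, 86 gained one and 4 changed sign with a call in at least 1 of the fits; of the counts of members called, 240 stayed within 1.5 times the reported count and 37 did not. Those 4 were Kcnj4 from DIV3 to DIV7 with the stricter cell filter (-0.063, from 2.25), Kcnh7 over all neuron-like clusters (0.97, from -0.54), Kcna4 between dentate-like and pyramidal-like cells with finer clustering (-0.79, from 0.19), and Kcnh1 in choroid plexus-like cells with the stricter cell filter (-0.33, from 1.34). The cause was not tested.

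In glutamatergic-like cells from DIV3 to DIV7, in place of 11, there were 17 calls with no count filter, 0 with the stricter cell filter, 6 in dentate-like cells alone and 0 to 17 with a library left out. From DIV3 to DIV5, in place of 0, there were 3 with DESeq2, 5 with no count filter, 2 over all neuron-like clusters, 1 in dentate-like and 2 in pyramidal-like cells alone, and 0 to 11 with a library left out. No count filter gave 1 call from DIV5 to DIV7, and 3 from DIV1 to DIV3, where DESeq2 gave 2 and leaving out a library 0 to 4. In radial glia or astrocyte-like cells, in place of 15, the stricter cell filter gave 2 and leaving out a library 0 to 17. For the difference of the 2 changes, in place of 7, DESeq2 gave 4, no count filter 11, the stricter cell filter 0, finer clustering 3 and leaving out a library 1 to 10. With the stricter cell filter, 12 members were called between GABAergic-like and glutamatergic-like cells and 18 in ciliated-like cells. DESeq2 called 52 in fibroblast-like cells (5 higher, 47 lower, in place of 9 and 20). Leaving out a library gave 10 to 20 in neuroblast-like cells, whose lowest value was without the DIV1 library.

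With the replicate number as a block, 21 members were called from DIV3 to DIV7 and 6 from DIV3 to DIV5; the count stayed at 0 from DIV5 to DIV7 and was 14 in radial glia or astrocyte-like cells. No paired analysis was possible for DIV1 against DIV3 because the DIV1 library carries no number.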

Other observations

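Kcnk12, a K2P subunit, differed between replicate numbers on each day. In glutamatergic-like cells the replicate 1 libraries held 38 (DIV3), 45 (DIV5) and 26 (DIV7) counts, the replicate 2 libraries 4, 2 and 1, and the DIV1 library 1. The ratio of replicate 1 to replicate 2 in CPM was 5.34, 23.1 and 9.39 on these days. Of members with at least 5 CPM in some library and no library at 0, only Kcnk12 stood out on all 3 days. The rule asked for a ratio of at least 2 or at most 0.5. The share of all genes meeting it is not given here, so this describes Kcnk12 only. The dentate-like share of glutamatergic-like cells was also higher in replicate 1: 58.1% against 30.1% (DIV3), 45.3% against 30.9% (DIV5) and 50.7% against 32.2% (DIV7). The part of this share in the Kcnk12 ratios was not tested.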
